A study of Mus musculus with 40 samples.

Results

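Secreted Wnt antagonists are proteins that stop Wnt ligands from reaching or using their receptors. The genes described here are Sfrp1, Sfrp2, Sfrp4, Sfrp5, Frzb, Dkk2, Dkk3, Wif1, Kremen1 and Sostdc1. They were taken from a list of symbols, each of which matched 1 Ensembl gene ID, and 10 of 10 were found among the 25044 genes of the adult table and the 24268 genes of the pubertal table. RNA sequencing libraries were made from the 3rd and 4th mammary glands of wildtype FVB/N mice, which received no treatment. Adult mice of 14 to 16 weeks were staged to proestrus, estrus, metestrus or diestrus and pooled by 2 or 3 animals, and pubertal mice of 34 to 36 days were pooled by 4. Each stage gave 2 libraries of fibroblasts, basal cells, adipocytes and luminal cells, which makes 32 adult and 8 pubertal libraries. Fibroblasts, basal and luminal cells were sorted by flow cytometry after removal of blood and endothelial cells, and the fibroblasts were the cells that lacked both the EpCAM and the CD49f surface marker, so they are defined by absence. Adipocytes were collected as the fraction that floats after digestion and were not sorted. Within an adult stage, mice went to pool 1 or 2 as earlier or later by vaginal smear and vaginal histology, where a difference was seen. Otherwise they were assigned by cell number. The replicates of a stage may therefore differ in timing within it. The adult cell types with the same stage and number came from the same pool of animals, and the pubertal adipocytes of replicate 2 came from other mice than the remaining replicate 2 libraries.

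A Wnt ligand signals by joining a Frizzled receptor to the co-receptor Lrp5 or Lrp6, which stabilises beta-catenin and switches on genes through Tcf and Lef factors. Secreted Frizzled-related proteins (Sfrp1, Sfrp2, Sfrp4, Sfrp5 and Frzb) and Wif1 bind Wnt ligands outside the cell, while Dickkopf proteins such as Dkk2 bind Lrp5 and Lrp6. Dkk3 is a divergent Dickkopf relative whose part in Wnt signalling is less settled. Kremen1 is a membrane receptor for Dickkopf proteins rather than a secreted protein, and Sostdc1 antagonises both Wnt and bone morphogenetic protein signalling. In the mammary gland Wnt signals are known for their role in ductal branching and in the maintenance of basal stem cells.

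Each library held 8991222 to 22760563 counts assigned to genes. Levels are given as CPM (counts scaled to a common library size by TMM factors over all 40 libraries), and because the tissue fractions were sequenced in bulk, fewer cells of a kind and less RNA per cell cannot be told apart. The 7 fibroblast markers summed to 18270 to 48300 CPM in adult fibroblast libraries, against 61.1 to 145 in basal, 3348 to 6704 in adipocyte and 107 to 533 in luminal libraries. The adipocyte libraries thus carried fibroblast transcripts in every sample. Endothelial markers summed to 872 to 2324 CPM in adult fibroblast libraries and 493 to 1598 CPM in adult adipocyte libraries, and mural markers to 1212 to 1710 CPM and 334 to 918 CPM. Their part in the members' levels was not tested. Adipocyte diestrus replicate 2 and adipocyte puberty replicate 2 stood apart, with 1870 and 971 CPM of 7 epidermal markers against 19.5 to 245 in the other adipocyte libraries, and with 3939 and 3068 CPM of adipocyte markers against 8233 to 17070. All 7 epidermal markers were detected in both and in adipocyte proestrus replicate 1, while 1 to 3 of them were at 0 in the remaining adipocyte libraries. Calls that changed without one of these libraries are named beside the main results they touch.

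In the adult gland most of these antagonists were highest in fibroblasts. A difference was called when the adjusted p of the edgeR quasi-likelihood test, corrected over all genes tested, was under 0.05. Fibroblasts exceeded luminal cells in 10 of 10 members, where 81% of all genes tested were called in either direction, and the members' median log2 difference was 4.32 against -0.02 over all genes. Between fibroblasts and basal cells 9 members were called, 7 higher and 2 lower in fibroblasts, against a background of 77%. Between fibroblasts and adipocytes 7 members were called, all of them higher in fibroblasts, against 78.4%. The cell types differed in most genes, so a call by itself says little about the members. Per kilobase of exon, the 10 members together reached 152.8 ± 46.1 RPKM in fibroblasts, 127.5 ± 15.3 in basal cells, 23.9 ± 7.70 in adipocytes and 11.9 ± 2.36 in luminal cells (SD, n = 8 libraries each).

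**Figure D1:**
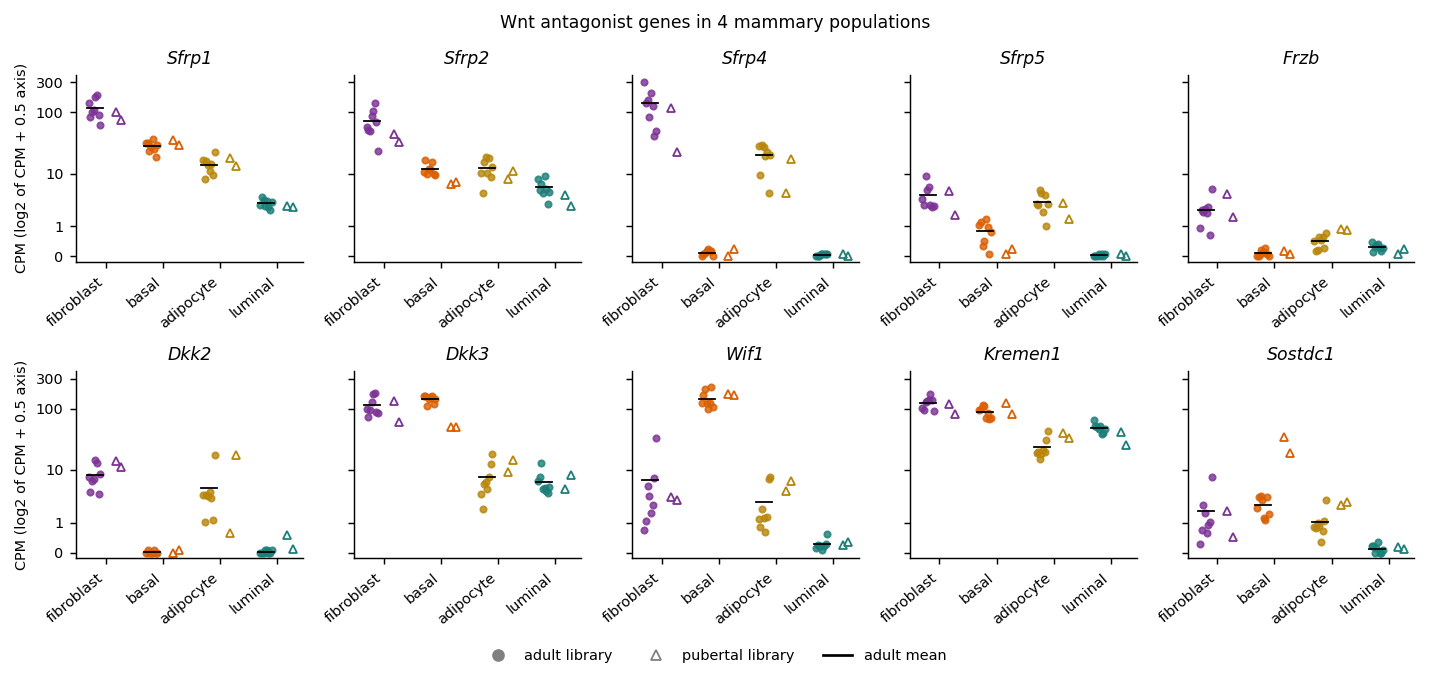
Level of each antagonist in every library, as CPM on a log2(CPM + 0.5) axis, by cell type, with adult libraries as circles, pubertal libraries as triangles and the adult mean as a line. Sfrp4 reached 41.5 to 307 CPM in adult fibroblasts and averaged 0.0739 CPM in adult basal cells, while Wif1 reached 98.5 to 220.2 CPM in adult basal cells.

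Among the Frizzled-related proteins, Sfrp1 (ENSMUSG00000031548, chromosome 8, 23411502 to 23449632 in GRCm38) had 62.2, 104.5 and 187 CPM as lowest, median and highest value in adult fibroblasts, 18.7, 28.4 and 36.8 in the basal libraries, 8.16, 14.1 and 22.7 in the adipocyte libraries, and 2.21, 2.99 and 3.94 in luminal cells. Every fibroblast library lay above every library of the other cell types, and basal libraries lay above luminal ones without overlap. The log2 difference of Sfrp1 was 2.02 ± 0.19 between fibroblasts and basal cells (SE, adjusted p = 4.11e-09), 3.01 ± 0.20 between fibroblasts and adipocytes (adjusted p = 1.8e-11) and 5.23 ± 0.22 between fibroblasts and luminal cells (adjusted p = 8.63e-15). Sfrp2 (ENSMUSG00000027996, chromosome 3, 83766321 to 83774316) followed the same order at its top, with 23.2, 62.9 and 138 CPM in fibroblasts against 9.56, 11.1 and 16.5 in the basal libraries, 4.64, 11.5 and 18.5 in the adipocyte libraries and 2.94, 5.36 and 9.07 in luminal cells. Sfrp2 shares 347 bases of exon with the antisense gene Gm26771, which had 0 to 19 counts in the 40 libraries, and the strand setting of the counting is not given in the sources used here. Sfrp2 did not differ detectably between basal cells and adipocytes (log2 difference 0.01 ± 0.23, adjusted p = 0.978), and both were above luminal cells (1.04 ± 0.23 for basal cells, adjusted p = 0.000396, and 1.03 ± 0.23 for adipocytes, adjusted p = 0.000393).

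Sfrp4 (ENSMUSG00000021319, chromosome 13, 19623104 to 19632994) was the member most restricted to the stroma. Its lowest, median and highest values were 41.5, 133 and 307 CPM in adult fibroblasts and 4.67, 21.3 and 29.7 in adipocytes. All 8 basal libraries together held 10 reads and all 8 luminal libraries 5 reads. The log2 difference between fibroblasts and adipocytes was 2.62 ± 0.27 (adjusted p = 3.24e-08), and fibroblasts held 87.2% and adipocytes 12.8% of the Sfrp4 CPM summed over the 4 cell type means. Adipocyte libraries also held fibroblast markers, and the part of those cells in the adipocyte level of Sfrp4 was not tested.

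Sfrp5 and Frzb were scarce. Sfrp5 (ENSMUSG00000018822, chromosome 19, 42197971 to 42202252) had 2.52 to 8.97 CPM in fibroblasts, 0.049 to 1.51 in basal cells and 1.03 to 5.15 in adipocytes, and 3 reads in all luminal libraries together. Fibroblasts and adipocytes overlapped and were not separated by the test (0.38 ± 0.31, adjusted p = 0.28), whereas fibroblasts were above basal cells (2.61 ± 0.35, adjusted p = 1.48e-06). From the summed counts, Sfrp5 was 231-fold higher in fibroblasts than in luminal cells, with a 95% counting interval of 78.4 to 1120, and 46.6-fold higher in basal than in luminal cells (15.5 to 229). Frzb (ENSMUSG00000027004, chromosome 2, 80411970 to 80447625) had 0.592, 2.19 and 5.38 CPM as lowest, median and highest value in fibroblasts and averaged 0.0598 CPM in basal cells, 0.363 in adipocytes and 0.207 in luminal cells. It was higher in fibroblasts than in adipocytes (2.66 ± 0.45, adjusted p = 2.36e-05) and than in luminal cells (3.41 ± 0.46, adjusted p = 1.09e-06), and both calls held without fibroblast diestrus replicate 2 (2.08 and 2.83), the library with its highest value. Its call between basal and luminal cells rested on 8 against 38 reads (-2.31 ± 0.74, adjusted p = 0.00887).

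Among the Dickkopf genes, Dkk2 (ENSMUSG00000028031, chromosome 3, 132085292 to 132180304) was found in both stromal fractions and hardly elsewhere. Adult fibroblasts had 3.85, 7.28 and 14.5 CPM as lowest, median and highest value, and adipocytes had 1.06, 3.63 and 17.96, where the highest was diestrus replicate 2 and the other 7 libraries reached no more than 4.19. The 8 basal libraries held 2 reads and the 8 luminal libraries 3 reads, which makes Dkk2 551-fold higher in fibroblasts than in basal cells (95% counting interval 152 to 4560) and 471-fold higher than in luminal cells (161 to 2290). Fibroblasts and adipocytes overlapped (0.87 ± 0.40, adjusted p = 0.0586), and without adipocyte diestrus replicate 2 the difference was 1.57 ± 0.29 and was called (adjusted p = 8.35e-05). Leaving out adipocyte proestrus replicate 1, adipocyte diestrus replicate 1 or fibroblast diestrus replicate 1 also gave a call, at 1.1, 0.64 and 0.98. Dkk3 (ENSMUSG00000030772, chromosome 7, 112116017 to 112159057) was shared by fibroblasts and basal cells, with 73.2, 96.9 and 176 CPM in fibroblasts against 109.5, 147.9 and 161.6 in basal cells. These ranges overlapped. Dkk3 was lower in fibroblasts by the test (-0.38 ± 0.16, adjusted p = 0.0362), but 23 of 38 alternative settings lost the call, with log2 differences of -0.44 to -0.26. It was lost without adipocyte diestrus replicate 2 (-0.31, adjusted p = 0.0756) and without fibroblast diestrus replicate 2 (-0.37, adjusted p = 0.0605). Fibroblasts and basal cells both lay far above adipocytes (1.96 to 18.1 CPM) and luminal cells (3.92 to 12.97 CPM), with log2 differences of 4.11 ± 0.19 between fibroblasts and adipocytes and 4.57 ± 0.19 between basal and luminal cells (adjusted p = 1.1e-13 and 1.46e-14). Adipocytes and luminal cells did not differ detectably in Dkk3 (0.08 ± 0.18, adjusted p = 0.712), unless luminal estrus replicate 1, with 12.97 CPM, was left out (0.40 ± 0.15, adjusted p = 0.0193).

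Wif1 (ENSMUSG00000020218, chromosome 10, 121033960 to 121100650) was the basal antagonist. Its lowest, median and highest values were 0.647, 2.98 and 32.9 CPM in adult fibroblasts, 98.5, 122 and 220.2 in the basal libraries and 0.587, 1.31 and 7.73 in the adipocyte libraries, and it averaged 0.177 ± 0.140 CPM in luminal cells (SD, n = 8). No basal library overlapped with any other cell type. The log2 difference was -5.32 ± 0.29 between fibroblasts and basal cells (adjusted p = 8e-13), 6.26 ± 0.30 between basal cells and adipocytes (adjusted p = 8.19e-14) and 9.78 ± 0.38 between basal and luminal cells (adjusted p = 5.21e-15). The 32.9 CPM came from fibroblast diestrus replicate 2, and fibroblasts exceeded adipocytes by 0.94 ± 0.33 with it (adjusted p = 0.0126) and by 0.57 without it (adjusted p = 0.042). That call was lost without fibroblast proestrus replicate 2 (0.83, adjusted p = 0.0515) or without adipocyte metestrus replicate 1 (0.76, adjusted p = 0.0513).

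Kremen1, the Dickkopf receptor, was found at substantial levels in all 4 cell types. Kremen1 (ENSMUSG00000020393, chromosome 11, 5191552 to 5261558) had 92.8, 131 and 168 CPM as lowest, median and highest value in adult fibroblasts, 67.7, 88.7 and 113 in the basal libraries, 15.5, 19.5 and 42.9 in the adipocyte libraries, and 38.9, 49.3 and 64.3 in luminal cells. Neighbouring fibroblast and basal libraries overlapped, although the test separated them (0.49 ± 0.09, adjusted p = 6.81e-05), and basal libraries all lay above luminal ones (0.83 ± 0.09, adjusted p = 8.59e-08). Of the 10 members, Kremen1 alone was lower in adipocytes than in luminal cells (-1.13 ± 0.10, adjusted p = 7.86e-10). Sostdc1 (ENSMUSG00000036169, chromosome 12, 36314139 to 36318452) was low in all adult cell types, with 0.177 to 7.50 CPM in fibroblasts and 1.16 to 3.58 in basal cells, which the test did not separate (-0.83 ± 0.41, adjusted p = 0.0721). Without fibroblast diestrus replicate 2, which held the 7.50 CPM, Sostdc1 was called lower in fibroblasts (-1.34 ± 0.38, adjusted p = 0.00386), as it was without fibroblast proestrus replicate 2 (-1.14, adjusted p = 0.0343). It was higher in basal cells than in adipocytes (1.37 ± 0.42, adjusted p = 0.00493) and than in luminal cells (5.02 ± 0.55, adjusted p = 5.3e-08).

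Of the remaining adult comparisons, basal cells differed from luminal cells in 8 members, 7 higher and 1 lower in basal cells, against 73.6% of all genes. Basal cells differed from adipocytes in 9 members, with Sfrp1, Dkk3, Wif1, Kremen1 and Sostdc1 higher and Sfrp4, Sfrp5, Frzb and Dkk2 lower in basal cells, against 84.2%. Adipocytes differed from luminal cells in 8 members, 7 higher and 1 lower in adipocytes, against 81.2%. By adult means luminal cells were lowest in 7 members, with adipocytes lowest in Kremen1 and basal cells in Frzb and Dkk2.

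**Figure D2:**
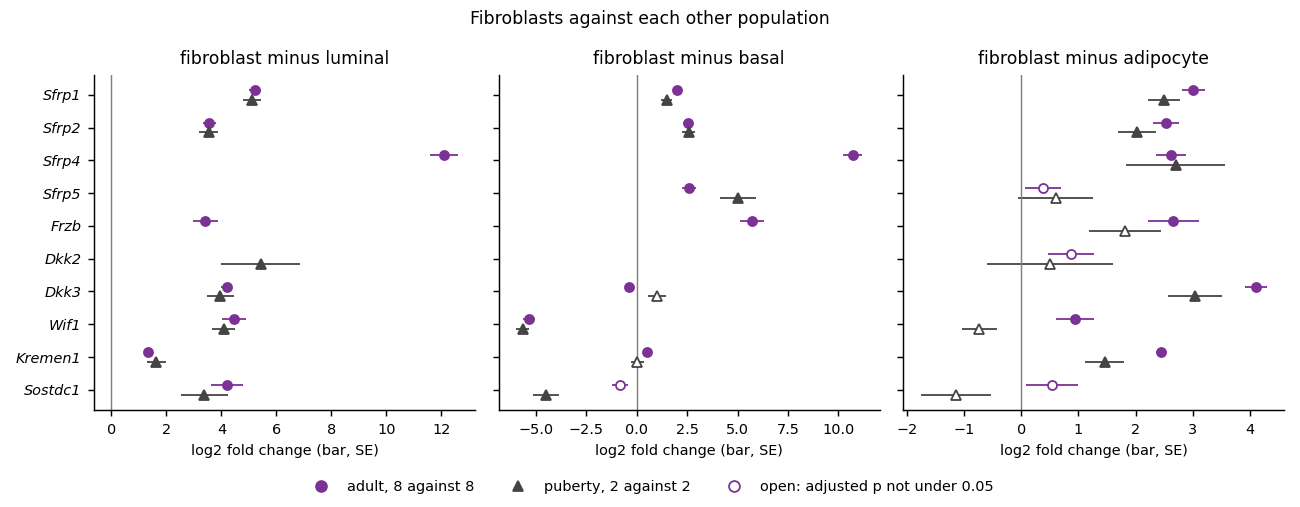
Log2 differences in CPM between fibroblasts and each other cell type for the 10 antagonists, with adult libraries as circles, pubertal libraries as triangles, standard errors as bars and open symbols where the adjusted p was not under 0.05; members with 3 or fewer reads in the compared cell type are not drawn. Wif1 lay at -5.32 in adults and -5.65 in puberty against basal cells, while Sfrp1 lay above 0 in all 6 comparisons, between 1.5 and 5.23.

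RefSeq promoter windows of 300 bases in GRCm38.p6 existed for 5 of the 10 members. They held 250 bases before the annotated start and 50 after it. The window of Sfrp5, also highest in fibroblasts, is not printed. The other 4 are shown, Sfrp2, Frzb and Dkk2 with their highest levels in fibroblasts and Wif1 with its highest level in basal cells. They are reference sequence and were not read from the FVB/N mice. Each is printed 5′ to 3′ on the gene's strand, at chr3:83766071-83766370 (plus strand) for Sfrp2, chr2:80447347-80447646 (minus) for Frzb, chr3:132085042-132085341 (plus) for Dkk2 and chr10:121033754-121034053 (plus) for Wif1. Capitals mark matches to the letters TATAAA on the gene's strand (TATA box), CCAAT on either strand, GGGCGG on either strand (GC box) and CTTTGA on either strand (the core bound by Tcf and Lef factors).
Sfrp2: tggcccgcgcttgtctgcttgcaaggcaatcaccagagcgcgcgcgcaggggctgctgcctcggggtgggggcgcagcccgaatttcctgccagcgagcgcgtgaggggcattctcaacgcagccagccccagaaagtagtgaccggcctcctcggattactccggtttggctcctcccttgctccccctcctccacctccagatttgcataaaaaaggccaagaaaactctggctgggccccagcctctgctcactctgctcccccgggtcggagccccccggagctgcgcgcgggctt
Frzb: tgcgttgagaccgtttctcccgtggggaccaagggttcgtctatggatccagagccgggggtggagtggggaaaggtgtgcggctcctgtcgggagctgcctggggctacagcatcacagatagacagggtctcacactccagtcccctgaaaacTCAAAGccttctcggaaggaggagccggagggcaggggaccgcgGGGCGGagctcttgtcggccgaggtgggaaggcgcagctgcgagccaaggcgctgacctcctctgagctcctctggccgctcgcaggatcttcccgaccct
Dkk2: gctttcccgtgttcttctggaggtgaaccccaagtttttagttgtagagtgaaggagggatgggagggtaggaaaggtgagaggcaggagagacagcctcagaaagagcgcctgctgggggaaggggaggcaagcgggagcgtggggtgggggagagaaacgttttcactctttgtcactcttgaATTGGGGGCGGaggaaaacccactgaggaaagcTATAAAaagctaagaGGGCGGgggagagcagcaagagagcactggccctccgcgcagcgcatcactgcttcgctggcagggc
Wif1: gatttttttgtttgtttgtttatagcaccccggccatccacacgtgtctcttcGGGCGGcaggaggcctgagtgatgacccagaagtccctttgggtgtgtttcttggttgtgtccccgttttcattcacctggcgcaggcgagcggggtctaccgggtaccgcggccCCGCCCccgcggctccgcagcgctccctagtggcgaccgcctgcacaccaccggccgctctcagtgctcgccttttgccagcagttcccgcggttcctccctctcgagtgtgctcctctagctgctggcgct

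Dkk2 was the only one of the 5 members with a TATA box, 32 bases before the start, and it also held a CCAAT box that runs into a GC box 60 bases before the start and a further GC box 17 bases before it. Frzb held a GC box 51 bases before the start and the Tcf and Lef core 95 bases before it, written TCAAAG on the gene's strand. The RefSeq start used for Frzb differs from the end of the gene span given above, 80447625 on the minus strand. Both Frzb matches lie inside that span. Wif1 held GC boxes 197 and 82 bases before the start, and the Sfrp2 window held none of the 4 letter strings. The Sfrp5 window held GC boxes 43 and 1 bases before the start and a CCAAT box after it. Over 32851 RefSeq promoter windows of the same length the TATA letters were found in 8.32%, CCAAT in 37.4%, the GC box in 35.7% and the Tcf and Lef core in 16%. The GC content was 66% for Sfrp2, 64.7% for Frzb, 57.7% for Dkk2 and 63% for Wif1, against a median of 52.7% over all windows, with 22, 20, 11 and 25 CG pairs in the same order of genes against a median of 7. A match describes letters and says nothing of whether a factor binds there.

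In puberty most members were again highest in fibroblasts. Fibroblasts exceeded luminal cells in 10 of 10 members (background 52.2%), and differed from basal cells in 8, of which Wif1 and Sostdc1 were lower in fibroblasts (35.8%). They exceeded adipocytes in 5 members, namely Sfrp1, Sfrp2, Sfrp4, Dkk3 and Kremen1 (28.4%). Basal cells exceeded luminal cells in 6 members (37.2%), differed from adipocytes in 9, 5 higher and 4 lower in basal cells (40.9%), and adipocytes exceeded luminal cells in 8 (39.7%). With 2 libraries a group, leaving out basal or fibroblast replicate 1 lowered the total of these calls to 38, against 46 with all libraries. Without adipocyte puberty replicate 2 the total was 45. Dkk2 between adipocytes and luminal cells then had a difference of 0.85 without a call (adjusted p = 0.467), against 4.92 ± 1.42 with all libraries (adjusted p = 0.0247). Sfrp1 between basal cells and adipocytes (0.8, adjusted p = 0.0894) and Kremen1 between fibroblasts and adipocytes (1.33, adjusted p = 0.0589) also lost their calls. Dkk2 gained calls between fibroblasts and adipocytes and between basal and luminal cells (-3.24, adjusted p = 0.0495).

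Sfrp1 had 99.3 and 74.6 CPM in pubertal fibroblasts, against 35.5 and 29.4 in the basal, 17.8 and 13.5 in the adipocyte and 2.67 and 2.61 in the luminal libraries, and no pair of cell types overlapped. The log2 difference between fibroblasts and basal cells was 1.5 ± 0.27 (adjusted p = 0.00305). Sfrp4 had 116 and 22.5 CPM in fibroblasts, against 4.56 and 17.2 in adipocytes, and the difference of 2.70 ± 0.86 (adjusted p = 0.0468) was lost in 8 of 13 alternative settings. Against basal cells, which held 3 reads, Sfrp4 was 922-fold higher in fibroblasts (95% counting interval 315 to 4480). The Dkk2 values were 14.0 and 11.2 CPM in fibroblasts, against 0.533 and 17.4 in adipocytes (0.51 ± 1.1, adjusted p = 0.757), and without adipocyte puberty replicate 2, the library rich in epidermal markers, the difference was 4.56 ± 0.77 (adjusted p = 0.00425). The 2 pubertal adipocyte libraries thus lay on either side of both fibroblast libraries. Wif1 had 3.43 and 2.93 CPM in fibroblasts, against 173 and 164 in basal cells, with 4.33 and 6.46 in adipocytes and 0.167 and 0.230 in luminal cells. Sostdc1 had 1.84 and 0.378 CPM in pubertal fibroblasts, against 34.8 and 19.03 in basal cells, with 2.37 and 2.67 in adipocytes, and the difference between fibroblasts and basal cells was -4.50 ± 0.64 (adjusted p = 0.000962). For Dkk3 the fibroblast values of 132 and 60.7 CPM lay above the basal values of 51.3 and 49.8, with a difference of 1.0 ± 0.44 that did not pass the test (adjusted p = 0.108).

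Across the estrous cycle no member was called between any pair of stages within a cell type, in 180 tests by the edgeR quasi-likelihood method. Of all genes tested, 0% in fibroblasts, 0.0247% in basal cells, 0.0801% in adipocytes and 0.309% in luminal cells were called in at least 1 of the 6 pairs, each stage having 2 libraries. At an unadjusted p under 0.05 there were 49 of the 180 tests, made up of 23 of 60 in fibroblasts, 9 of 42 in basal cells, 14 of 54 in adipocytes and 3 of 24 in luminal cells. DESeq2 called 21 of the 180, namely 11, 1, 9 and 0 in fibroblasts, basal cells, adipocytes and luminal cells. The share of all genes that DESeq2 called is not given here, so these counts have no background beside them. Setting 1 stage against the other 3 gave 3 calls in 120 tests, all of them in adipocytes, where 11% of genes were called, against 0% in fibroblasts, 1.22% in basal cells and 0.471% in luminal cells.

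In fibroblasts metestrus had the highest mean for 5 members. Sfrp1 had 139.9 and 82.9 CPM in proestrus, 99.8 and 109 in estrus, 173 and 187 in metestrus and 91.1 and 62.2 in diestrus. Dkk3 had 169 and 176 CPM in metestrus and 73.2 to 129 in the other 6 libraries, and Sfrp2 had 103.5 and 138 CPM in metestrus and 23.2 to 88.0 in the others. The metestrus libraries lay above all other adult fibroblast libraries in Sfrp1, Sfrp2, Dkk2, Dkk3 and Kremen1. For metestrus against the other stages, 2276 of the 13068 genes tested in fibroblasts had an unadjusted p under 0.05. The share of all genes with both metestrus libraries on top was not counted, so the separation is not shown to be particular to these members. None of these members was called by edgeR in the filtered fit of fibroblasts, with log2 differences of 0.92 ± 0.17 for Dkk3 (adjusted p = 0.13), 0.94 ± 0.22 for Sfrp1 (adjusted p = 0.159), 1.18 ± 0.32 for Dkk2 (adjusted p = 0.183) and 1.16 ± 0.36 for Sfrp2 (adjusted p = 0.212). DESeq2 called these 4 (adjusted p = 0.00219 for Dkk3, 0.0129 for Sfrp1, 0.0456 for Dkk2 and 0.0411 for Sfrp2), as did edgeR with no filter on low counts. Neither called Kremen1. The joint edgeR fit of all adult libraries called Dkk3 (0.88, adjusted p = 0.049). Sfrp4 was lowest in diestrus, with 41.5 and 50.2 CPM against 84.6 to 307 in the other stages, without overlap and without a call in that fit (-1.78 ± 0.39, adjusted p = 0.192). It was called by DESeq2 (-1.78, adjusted p = 3.53e-05), with no filter (-1.77, adjusted p = 7.59e-12) and in the joint fit (-1.84, adjusted p = 0.0319). The summed fibroblast markers were 32180 to 45350 CPM in proestrus and estrus, 48300 and 41610 in metestrus and 29180 and 18270 in diestrus. They were low in diestrus, and metestrus overlapped with proestrus and estrus. Their part in the low diestrus values was not tested. Between diestrus and metestrus 7 of 10 members had an unadjusted p under 0.05, against 2114 of the 13068 genes tested in fibroblasts. DESeq2 called 5 of these members, Sfrp1 (-1.21, adjusted p = 0.00576), Sfrp2 (-1.37, adjusted p = 0.0416), Sfrp4 (-1.81, adjusted p = 0.00107), Dkk3 (-0.99, adjusted p = 0.00595) and Wif1 (3.30, adjusted p = 9.59e-05). The filtered edgeR fit of fibroblasts called none of the 10, edgeR with no filter called 7, and the joint edgeR fit called Wif1 (3.26, adjusted p = 0.00779). The shares of all genes called by DESeq2, with no filter and in the joint fit are not given here.

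**Figure D3:**
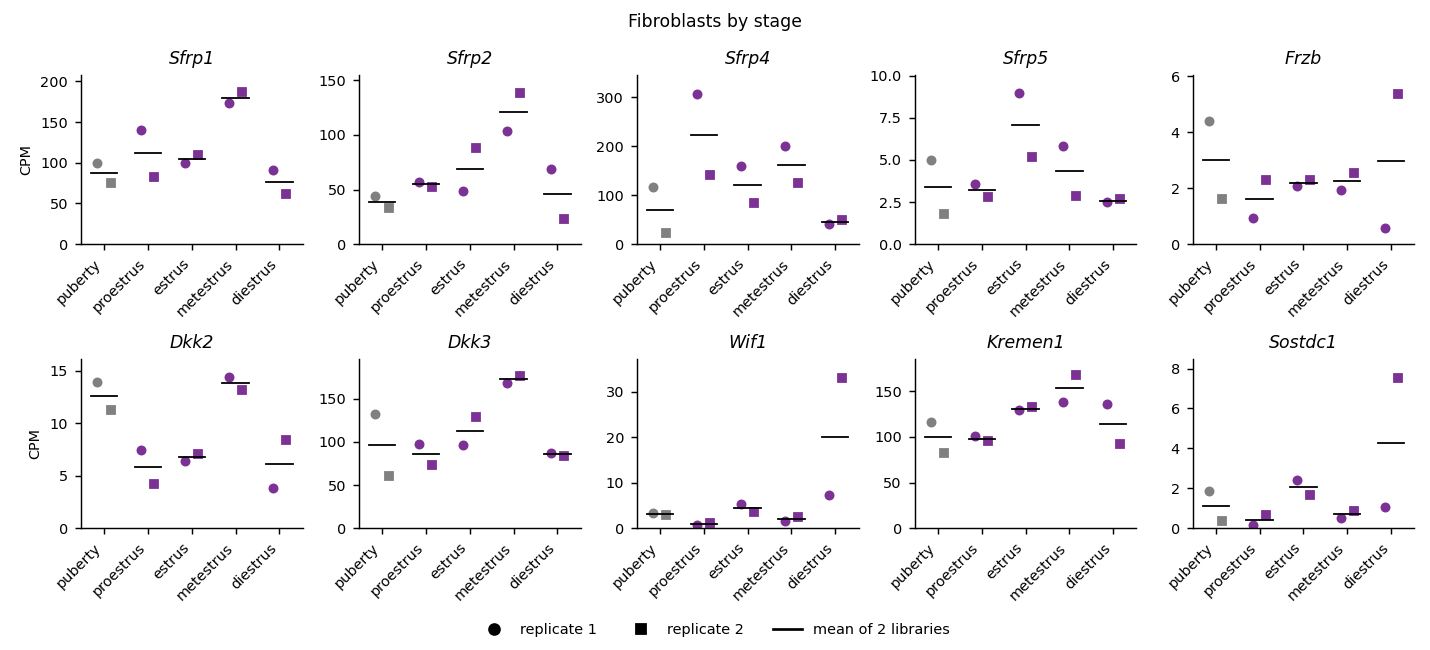
Level of each antagonist in fibroblasts as CPM in puberty, proestrus, estrus, metestrus and diestrus, with replicate 1 as a circle, replicate 2 as a square and the mean as a line. Metestrus held the 2 highest adult values of Sfrp1 (173 and 187 CPM), and diestrus replicate 2 held the highest value of Wif1 (32.9 CPM).

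Fibroblast diestrus replicate 2 stood apart in 3 members. Wif1 was 32.9 CPM there, against 0.647 to 7.25 in the other 7 adult fibroblast libraries, Sostdc1 was 7.50 against 0.177 to 2.40, and Frzb was 5.38 against 0.592 to 2.56. The basal genes Krt14, Krt5 and Trp63 were at 18.5, 6.26 and 2.19 CPM in that library. Their medians over the 8 adult fibroblast libraries were 18.5, 5.45 and 1.9 CPM. The highest values, 92.6, 25.98 and 14.6 CPM, were those of diestrus replicate 1. In diestrus replicate 2 the ratio of Wif1 to Krt14 counts was 1.78. It was 0.0507 to 0.284 in the other adult fibroblast libraries and 0.0142 to 0.0417 in adult basal libraries. The fibroblast markers of diestrus replicate 2 were the lowest of the adult fibroblast libraries, at 18270 CPM. The part of basal cells in these values was not tested. Wif1 in diestrus against the other stages (3.39 ± 0.47) was not called by the filtered edgeR fit of fibroblasts (adjusted p = 0.177), but was called by DESeq2 (3.38, adjusted p = 4.33e-07), with no filter (3.39, adjusted p = 4.44e-31) and in the joint fit (3.33, adjusted p = 0.000297). The filtered fit called it when diestrus replicate 1 was left out (4.09 ± 0.28, adjusted p = 0.0032).

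In adipocytes the diestrus libraries held more Wif1, Dkk3 and Kremen1 than the other stages. Wif1 had 6.90 and 7.73 CPM in diestrus, against 0.587 to 2.02 in the other 6 adult libraries (2.61 ± 0.35, adjusted p = 0.0204). Dkk3 had 12.5 and 18.1 CPM against 1.96 to 7.63 (1.67 ± 0.31, adjusted p = 0.0333), and Kremen1 had 31.4 and 42.9 CPM against 15.5 to 21.7 (0.94 ± 0.15, adjusted p = 0.0252). In all 3 the diestrus libraries lay above every other stage. Without diestrus replicate 2, Wif1 (2.56, adjusted p = 0.0228) and Kremen1 (0.74, adjusted p = 0.0419) were still called and Dkk3 (1.42, adjusted p = 0.0705) was not. Fitting the replicate number as a block kept log2 differences of 2.61, 1.66 and 0.93 for Wif1, Dkk3 and Kremen1 but lost all 3 calls (adjusted p = 0.0656, 0.0837 and 0.0656). The calls were also lost on leaving out any 1 of 5 adipocyte libraries of the other stages, proestrus replicate 2 and both replicates of estrus and metestrus. All 3 were called by DESeq2 (adjusted p = 6.57e-08, 8.68e-05 and 4.07e-05) and when all adult libraries were fitted together (adjusted p = 0.000168, 0.000117 and 8.38e-05).

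The same diestrus adipocyte libraries held more epithelial transcript. The 8 basal markers summed to 592 and 3299 CPM in diestrus, against 134 to 406 in the other adult adipocyte libraries, and the 8 luminal markers summed to 1347 and 658 CPM, against 138 to 387. All 8 basal and all 8 luminal markers were detected in every adipocyte library. Krt14, a keratin of basal cells that the epidermis also makes, was at 108 and 1910 CPM in diestrus replicates 1 and 2. The ratio of Wif1 to Krt14 counts was 0.0638 and 0.00405 there. It was 0.00674 to 0.0983 in the other adult adipocyte libraries and 0.0142 to 0.0417 in adult basal libraries. The part of epithelial cells in the adipocyte values of Wif1, Dkk3 and Kremen1 was not tested. Of the CPM summed over the 4 adult cell type means, basal cells held 93.7% of Wif1, 52.8% of Dkk3 and 31% of Kremen1. Fibroblasts held 4.44%, 42.1% and 43.4% in the same order. Dkk2, of which the adult basal and luminal libraries held 2 and 3 reads in all, was 17.96 CPM in adipocyte diestrus replicate 2 and 17.4 in adipocyte puberty replicate 2, the pair of libraries with the highest epidermal markers, and 0.533 to 4.19 CPM in the other 8. With diestrus replicate 2 as the lone diestrus library, Dkk2 was called above the other stages (2.60 ± 0.44, adjusted p = 0.0124).

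**Figure D4:**
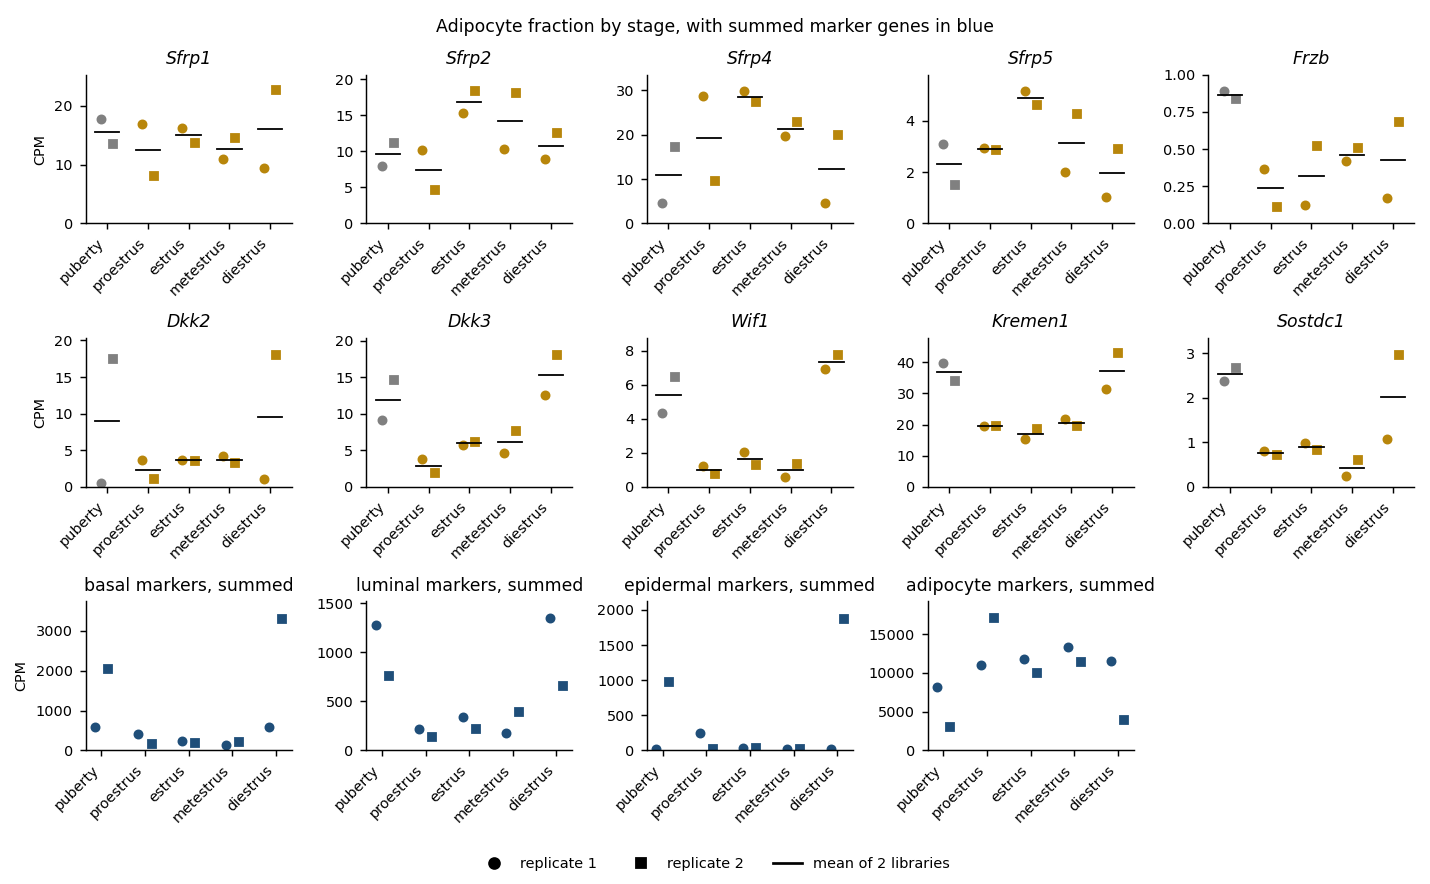
Level of each antagonist in adipocyte libraries as CPM in puberty and the 4 adult stages, with the summed CPM of basal, luminal, epidermal and adipocyte markers in blue, replicate 1 as a circle, replicate 2 as a square and the mean as a line. Diestrus stood above the other adult stages in Wif1 (6.90 and 7.73 CPM) and in summed luminal markers (1347 and 658 CPM).

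In the epithelium no member was called between stages. Kremen1 was 113 and 110.5 CPM in basal cells of estrus, against 67.7 to 99.1 in the other stages, without overlap and without a call (0.49 ± 0.12, adjusted p = 0.116), although DESeq2 called it (0.51, adjusted p = 0.0291). Sostdc1 had 1.27 and 1.16 CPM in basal cells of metestrus, against 1.57 to 3.58 in the other stages. In luminal cells the 4 members that could be tested were Sfrp1, Sfrp2, Dkk3 and Kremen1, and Dkk3 was called in estrus against the other stages without estrus replicate 2 (1.28, adjusted p = 0.0307), when estrus replicate 1 at 12.97 CPM stood alone. The stage pattern differed between cell types in Dkk3 (adjusted p = 0.00904) and Kremen1 (adjusted p = 0.00479), against 3.96% of all genes, and without the adipocyte libraries neither was called (adjusted p = 0.276 and 0.25). Wif1 (adjusted p = 0.066) was called when fibroblast estrus replicate 2, fibroblast diestrus replicate 1 or 2, or adipocyte diestrus replicate 1 was left out (adjusted p = 0.0491, 0.00385, 0.0376 and 0.0432).

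In basal cells Sostdc1 and Dkk3 differed between puberty and adulthood, in opposite directions. Puberty and adulthood were sequenced and tabulated separately, so age and sequencing run cannot be told apart. Of the 7 members tested in basal cells 4 were called, against 49.3% of all genes. That share of all genes was the largest among the cell types, so the count of calls by itself says little about the members. Sostdc1 had 1.16, 2.51 and 3.58 CPM as lowest, median and highest value in adult basal cells, against 34.8 and 19.03 in pubertal basal cells, and fell by 3.57 on the log2 scale (SE 0.25, adjusted p = 5.22e-06). Dkk3 had 109.5, 147.9 and 161.6 CPM in adult basal cells, against 51.3 and 49.8 in pubertal ones (1.48 ± 0.14, adjusted p = 2.41e-05). Neither gene overlapped between ages, and both kept their calls in all 17 alternative settings, with log2 differences of -3.95 to -3.08 and 1.42 to 1.52.

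Sfrp2 was 9.56 to 16.5 CPM in adult basal cells, against 6.59 and 7.08 in pubertal ones (0.77 ± 0.19, adjusted p = 0.00637), and lost its call without basal puberty replicate 1 (adjusted p = 0.0776) or 2 (adjusted p = 0.052) and in the joint fit of all libraries (adjusted p = 0.097). Sfrp5 was also higher in adult basal cells (2.55 ± 0.84, adjusted p = 0.0277), on 4 reads in puberty, and its call was lost without basal puberty replicate 1 (1.98, adjusted p = 0.199), puberty replicate 2 (3.46, adjusted p = 0.0867) or diestrus replicate 2 (1.84, adjusted p = 0.069). Wif1, the leading basal antagonist, did not pass the test, with 98.5 to 220.2 CPM in adults against 173 and 164 in puberty (-0.25, adjusted p = 0.419), and nor did Sfrp1 (-0.24, adjusted p = 0.326) or Kremen1 (-0.24, adjusted p = 0.17, but -0.51 and adjusted p = 0.029 without basal puberty replicate 2).

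In adipocytes 2 of 9 members were called, against 12.3% of all genes. Wif1 was 0.587 to 7.73 CPM in adult adipocytes, against 4.33 and 6.46 in pubertal ones (-1.49 ± 0.33, adjusted p = 0.0356), and Kremen1 was 15.5 to 42.9 CPM, against 39.9 and 34.0 (-0.68 ± 0.16, adjusted p = 0.0381). In both genes the ages overlapped through diestrus libraries, and each call was lost in 9 of 17 alternative settings, among them leaving out puberty replicate 2 (-1.19, adjusted p = 0.113 for Wif1 and -0.8, adjusted p = 0.055 for Kremen1) and the replicate block (adjusted p = 0.0597 for Wif1 and 0.061 for Kremen1). Leaving out puberty replicate 2 and diestrus replicate 2 together, a choice made after seeing the data, gave -1.16 for Wif1 (adjusted p = 0.0819), -0.81 for Kremen1 (adjusted p = 0.0151) and -1.57 for Sostdc1 (adjusted p = 0.0339), which was not called with all libraries (-1.47 ± 0.42, adjusted p = 0.0586) but was without diestrus replicate 2 alone (-1.71, adjusted p = 0.0193) or diestrus replicate 1 alone (-1.33, adjusted p = 0.0425). The basal markers of pubertal adipocyte libraries summed to 576 and 2031 CPM, against 134 to 3299 in adult ones, and their part was not tested.

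In fibroblasts 0 of 10 members were called between adult and pubertal glands by edgeR, against 18.9% of all genes, with 1 at an unadjusted p under 0.05 and 0 by DESeq2. Over all genes, 4574 of 13267 had an unadjusted p under 0.05 in fibroblasts and 3644 of 12486 in luminal cells. Among the members in fibroblasts the smallest adjusted p was that of Dkk2 (-0.83 ± 0.29, adjusted p = 0.0729). Dkk2 had 3.85 to 14.5 CPM in adult fibroblasts against 14.0 and 11.2 in pubertal ones. Without fibroblast diestrus replicate 2, Dkk2 (-0.99 ± 0.23, adjusted p = 0.0216) and Sfrp2 (0.86 ± 0.25, adjusted p = 0.0413) were called, and Dkk2 also without fibroblast proestrus replicate 1 (-0.95, adjusted p = 0.0427). In luminal cells 0 of 4 members were called by edgeR, against 10.8%, with 1 at an unadjusted p under 0.05 and 0 by DESeq2, and Kremen1 was called when puberty replicate 1 was left out (0.98 ± 0.21, adjusted p = 0.00599). The difference with age itself differed between cell types, by a joint test over the 4 cell types, in Dkk3 (adjusted p = 0.00173), Kremen1 (adjusted p = 0.00282) and Sostdc1 (adjusted p = 0.00905), against 42% of all genes, and not detectably in Wif1 (adjusted p = 0.0717). Wif1 was called without fibroblast diestrus replicate 1 (adjusted p = 0.00894) or 2 (adjusted p = 0.0301), Dkk2 without adipocyte puberty replicate 2 (adjusted p = 0.0187), and Sostdc1 lost its call without basal puberty replicate 1 (adjusted p = 0.074).

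**Figure D5:**
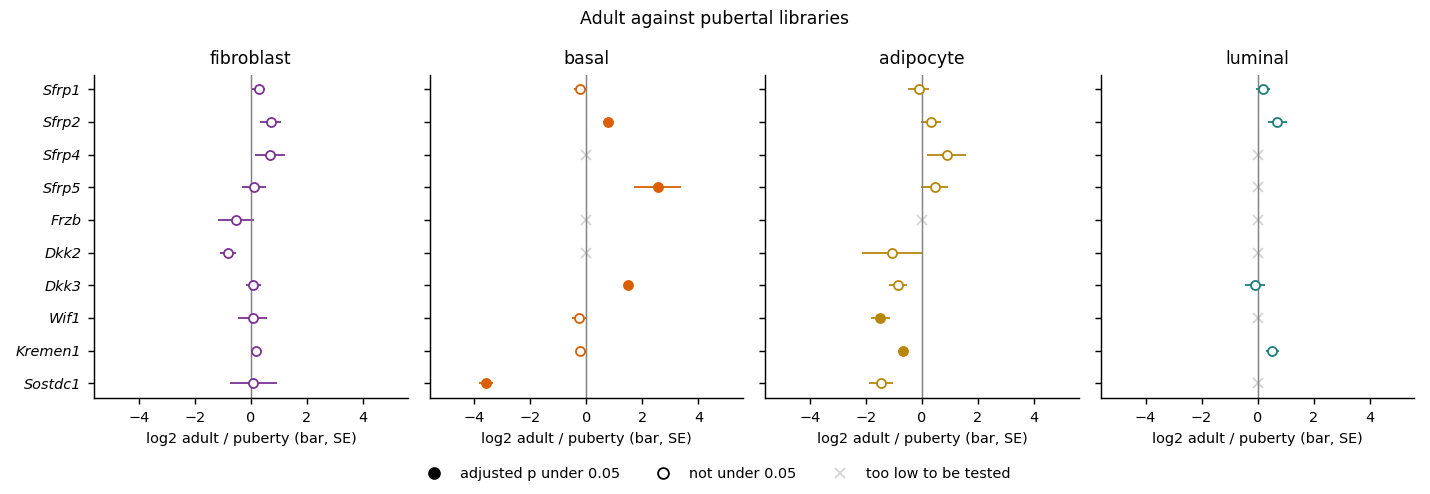
Log2 difference between adult and pubertal libraries with its standard error for each antagonist in fibroblasts, basal cells, adipocytes and luminal cells, filled where the adjusted p was under 0.05, with a cross where the gene was too low to be tested. In basal cells Sostdc1 lay at -3.57 and Dkk3 at 1.48, the pair of members with calls in all alternatives.

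Beyond the members, other inhibitors of Wnt signalling were measured from a list of 10 genes, of which 9 were in the adult table and 5 could be tested. Between fibroblasts and basal cells 2 of the 5 were called, both higher in fibroblasts, where 77% of all genes were called. Igfbp4, an insulin-like growth factor binding protein that can also inhibit Wnt signalling, averaged 630.9 ± 166 CPM in fibroblasts, against 27.8 ± 12.7 in basal cells (SD, n = 8 each), a log2 difference of 4.57 ± 0.14 (SE, adjusted p = 1.77e-16). Apcdd1, a membrane inhibitor, averaged 47.1 ± 11.5 CPM in fibroblasts, against 4.87 ± 1.36 in basal cells (3.28 ± 0.23, adjusted p = 7.45e-11). Dkkl1, also on this list, averaged 0.263 ± 0.129 CPM in basal cells, against 108 ± 32.5 in luminal cells (-8.70 ± 0.28, adjusted p = 2.75e-16). Whether Dkkl1 inhibits Wnt signalling in these cells was not tested. Igfbp4 also had a lower level in adult than in pubertal basal cells, with 13.9 to 51.4 CPM against 152 and 124 (-2.43 ± 0.17, adjusted p = 4.92e-06).

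The partners of the antagonists were spread over all populations. Of 14 Wnt ligands tested out of 19, 7 were higher and 4 lower in fibroblasts than in basal cells, against 77% of all genes called, with Wnt2 (28.97 ± 10.6 CPM in fibroblasts, 0.0715 ± 0.0714 in basal cells) and Wnt9b higher and Wnt5b (4.89 ± 2.33 CPM in fibroblasts, 78.7 ± 12.4 in basal cells) and Wnt10a lower. Of the 12 Frizzled and Lrp receptors, 3 were higher and 8 lower in fibroblasts than in basal cells, against the same 77%. Fzd4 was among the higher (42.6 ± 11.3 CPM in fibroblasts, 3.96 ± 0.923 in basal cells), and Fzd7 (50.6 ± 21.9 CPM in fibroblasts, 391 ± 142.5 in basal cells), Fzd3 and Lrp5 (62.98 ± 11.9 CPM in fibroblasts, 138.5 ± 20.7 in basal cells) were among the lower. Of 8 feedback targets and Tcf and Lef factors tested, 7 were higher and 0 lower in basal than in luminal cells, against 73.6% of all genes called, with Nkd2 at 21.6 ± 5.34 CPM in basal cells, against 0.370 ± 0.159 in luminal cells, and Nkd1, Lgr5 and Tcf7 beside it (all ± SD, n = 8 libraries).

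Over the 20 groups of cell type and stage, the correlation of mean log2(CPM + 1) was 0.95 between Sfrp4 and Dkk2, 0.91 between Sfrp4 and Sfrp5 and 0.90 between Sfrp1 and Sfrp2. Dkk3 was most like Kremen1 (0.86) and Sfrp1 (0.82), before Wif1 (0.70) and Sostdc1 (0.47). Kremen1 was likewise nearer to Sfrp1 (0.67) than to Wif1 (0.47) or Sostdc1 (0.39), while Wif1 was most like Sostdc1 (0.78). Among 14361 genes, the profile most like that of Sfrp4 was Tmem119 (Pearson r = 0.996), that of Sfrp1 was Mgp (0.985), that of Dkk2 was P2ry14 (0.982), that of Frzb was Scube1 (0.983), that of Dkk3 was Kif1a (0.981) and that of Wif1 was Egfl6 (0.979). The remaining members had as nearest genes Reck for Sfrp2 (0.973), Hic1 for Sfrp5 (0.968), Atp8b2 for Kremen1 (0.967) and Hs3st3a1 for Sostdc1 (0.916). These values describe groups that share cell type, pool and sequencing run and carry no test.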

How the data were processed

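RNA sequencing was done on 40 libraries of mouse mammary cell fractions, as single-end reads of 65 bp. The deposited values are raw counts per Ensembl gene, which the authors made with TopHat2 2.1, Bowtie 1.1.0 and HTSeq according to the submitters' processing notes, on GRCm38. They deposited adult and pubertal counts as separate tables, so levels set across the tables were scaled together here. No fold changes of the authors were used. Symbols came from GENCODE M21, which named 24739 of the 25044 adult and 23989 of the 24268 pubertal IDs.

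Library sizes were scaled by TMM. Each fit kept genes whose CPM exceeded 1 in 2 or more of its libraries and tested them by edgeR 4.0.16 (quasi-likelihood F-test, limma 3.58.1, R 4.3.3) with Benjamini-Hochberg adjustment over all genes tested and a threshold of 0.05. Cell types were compared in 1 fit of 32 adult and 1 fit of 8 pubertal libraries, stages and ages in 1 fit per cell type, and cell type by stage or age by an interaction term. Ratios against 1 to 3 reads have exact 95% Poisson intervals, which cover counting error alone. Alternatives were RLE factors, DESeq2 1.42.0, no filter, the newer edgeR method, a replicate block, joint fits and leaving out each library. Adult cell types of 1 number share their animals, and the deviations of such pairs correlated at -0.082 to 0.296 (median 0.083, 9 of 24 pairs above 0.1). Libraries are labelled as separate pools. The scripts were tested on simulated data. The members and the gene lists were chosen with earlier results of these data known. All 10 members are named, of each other list the 4 genes with the smallest adjusted p in the comparison described, and for likeness the nearest of the 3 genes with the highest correlation.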

Additional observations from a re-analysis of the deposited data

Results flagged for a closer look

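Each of 29 groups held the CPM of 1 member in the 8 adult libraries of 1 cell type. A library was judged by its gap to the nearest library over the whole range of the group. The cut-off is one that chance passes about 1 time in 20 among values of 1 condition. These groups pool 4 stages, use CPM without a log scale and share libraries. That rate therefore does not apply here, and no excess over chance was tested. In 6 groups 1 library lay far from the other 7. In fibroblasts all 3 such values came from diestrus replicate 2, with Frzb at 5.38 CPM (0.592 to 2.56 in the other 7), Wif1 at 32.9 CPM (0.647 to 7.25) and Sostdc1 at 7.50 CPM (0.177 to 2.40). In adipocytes diestrus replicate 2 held Dkk2 at 18 CPM (1.06 to 4.19 in the other 7) and Sostdc1 at 2.96 CPM (0.252 to 1.083). In luminal cells estrus replicate 1 held Dkk3 at 13 CPM (3.92 to 7.53).

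The difference between adult and pubertal glands itself differed between the 4 cell types for Dkk3 (adjusted p = 0.00173), Kremen1 (adjusted p = 0.00282) and Sostdc1 (adjusted p = 0.00905) by the edgeR interaction test. These were 3 of 10 members, where 42% of all genes tested were called, so the count is not particular to the members. The stage pattern of adult glands differed between the 4 cell types for Dkk3 (adjusted p = 0.00904) and Kremen1 (adjusted p = 0.00479), against 3.96% of all genes. Both genes were higher in the diestrus adipocyte libraries. Neither was called by the same test without the adipocyte libraries (adjusted p = 0.276 for Dkk3 and 0.25 for Kremen1).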

How the results depend on the processing

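Over 111 called values of the members and 2883 values under alternative settings, 2775 kept direction and call, 108 lost the call and 0 reversed. Calls between adult cell types numbered 51 and were 50 to 53 in every setting, 53 with the pool of mice as a replicate block, and 50 to 52 when a library was left out. Between pubertal cell types there were 46, with 45 to 47 in the other settings, 45 with the replicate block, and 38 to 46 when a library was left out. Counts between stages depended most on the setting, and they are given without the share of all genes called in each alternative. In pairs of stages the count was 0, but 21 by DESeq2, 30 with no filter on low counts, 12 in a joint fit of the 32 adult libraries, 0 with the replicate block and 0 to 10 when a library was left out, the 10 without adipocyte diestrus replicate 1. For 1 stage against the other 3 it was 3, but 14 by DESeq2, 19 with no filter, 8 in the joint fit, 0 with the replicate block and 0 to 4 when a library was left out. Between adult and pubertal glands it was 6, but 10 with no filter, 4 with the replicate block and 4 to 8 when a library was left out. Cell type by stage gave 2, but 0 without the adipocyte libraries and 2 to 3 when a library was left out, and cell type by age gave 3 (2 to 4). Across stages a replicate number stands in part for an earlier or later pool of its stage and for no shared animals, and the deviations of same-numbered pools correlated at -0.671 to 0.431 (6 of 24 pairs above 0.1). A library left alone in its group was assumed to vary like the others. The causes of these changes were not tested. With 2 libraries a stage, a difference that passes no test is not shown to be absent.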
